A study of Mus musculus with 8 samples.

Results

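The genes described here are those of classical major histocompatibility complex (MHC) class I presentation: the heavy chains H2-K1 and H2-D1, their light chain B2m, the peptide transporter genes Tap1 and Tap2, the loading chaperone Tapbp, the immunoproteasome subunits Psmb8 and Psmb9, and the transactivator Nlrc5. These 9 genes were chosen by symbol from the 27532 genes of the deposited table, and all 9 passed the filter on low values, as did 20305 genes in all. They were measured by RNA sequencing of the vomeronasal organ, the chemosensory organ of the mouse nasal septum that detects pheromones. Libraries came from 4 adult mice of genotype Tex15Het, which carry 1 mutant copy of Tex15, and 4 of genotype Tex15KO. Tex15 encodes a germ cell protein known for its part in meiosis and transposon silencing, and the series asks what its loss does to vomeronasal neurons. The controls thus also carry a mutant allele. The strain, the construction of the allele and the cells it acts in are not given in the sources used here.

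Heterozygous replicate 1 was a male of 11.4 weeks, replicate 2 a female of 14.6 weeks, and replicates 3 and 4 females of 11.9 weeks. Knockout replicate 1 was a female of 11.9 weeks, replicates 2 and 3 males of 11.9 weeks, and replicate 4 a male of 12.1 weeks. The labels' animal numbers place heterozygous replicates 1 and 2 well before the other 6 mice, here called the later-numbered animals, which hold every knockout. The sample titles end in a further number, which is the same for heterozygous replicates 3 and 4 and knockout replicates 1 to 3 and differs from it in heterozygous replicates 1 and 2 and knockout replicate 4. What it stands for is not given in the sources used here. The organ was sequenced whole, so fewer cells of a type and less RNA per cell cannot be told apart.

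Class I molecules show peptides from inside a cell to CD8+ T cells. Proteasomes cut proteins into peptides, and interferon induces Psmb8 and Psmb9, which take the place of the usual catalytic subunits. The transporter formed by Tap1 and Tap2 carries the peptides into the endoplasmic reticulum, where Tapbp (tapasin) holds the empty heavy chain beside the transporter until a peptide is loaded. Every classical heavy chain folds with beta-2-microglobulin, the B2m product, and Nlrc5 is drawn to the promoters of these genes by factors that bind a shared module. In the vomeronasal organ B2m has another use. Neurons of the basal layer, which express V2R receptors, also express the H2-Mv genes, a family of class I heavy chains of the H2-M1, H2-M9, H2-M10 and H2-M11 type.

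The sequences upstream of the transcription starts are shown first because they hold the module through which classical class I genes are known to be controlled, set beside an H2-Mv promoter. RefSeq promoters (GRCm38.p6) were matched by symbol for 7 of the 9 genes, Tap2 and Nlrc5 being the others, and for 9 of the 9 H2-Mv genes. Each line gives the 200 bases before a start, read in the direction of the gene, and capitals mark matches on either strand to a kappaB site, to the interferon-response core AANNGAAA, to the CRE-like core TGACG, or to CCAAT. The windows lie at chr2:122147487-122147686 (plus strand) for B2m, chr17:34000348-34000547 (minus strand) for the first of 2 H2-K1 starts, chr17:35262894-35263093 (plus strand) for H2-D1, chr17:34187356-34187555 (plus strand) for Tap1 and chr17:36368418-36368617 (minus strand) for H2-M10.3, the H2-Mv gene with the highest mean level.
B2m: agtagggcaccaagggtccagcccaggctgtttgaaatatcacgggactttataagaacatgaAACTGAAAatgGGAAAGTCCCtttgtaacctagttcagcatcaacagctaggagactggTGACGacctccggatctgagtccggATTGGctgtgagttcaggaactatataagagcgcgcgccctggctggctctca
H2-K1: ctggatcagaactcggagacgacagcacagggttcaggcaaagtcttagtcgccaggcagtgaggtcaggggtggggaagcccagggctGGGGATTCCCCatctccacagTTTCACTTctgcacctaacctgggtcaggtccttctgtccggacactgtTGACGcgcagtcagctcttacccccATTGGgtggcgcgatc
H2-D1: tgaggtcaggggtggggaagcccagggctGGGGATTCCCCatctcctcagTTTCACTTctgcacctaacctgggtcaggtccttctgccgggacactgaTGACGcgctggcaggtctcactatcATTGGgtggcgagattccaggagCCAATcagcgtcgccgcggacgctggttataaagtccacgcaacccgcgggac
Tap1: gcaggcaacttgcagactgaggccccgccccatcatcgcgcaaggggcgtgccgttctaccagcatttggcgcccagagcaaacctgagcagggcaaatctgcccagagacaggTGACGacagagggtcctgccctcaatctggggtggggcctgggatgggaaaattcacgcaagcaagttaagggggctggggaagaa
H2-M10.3: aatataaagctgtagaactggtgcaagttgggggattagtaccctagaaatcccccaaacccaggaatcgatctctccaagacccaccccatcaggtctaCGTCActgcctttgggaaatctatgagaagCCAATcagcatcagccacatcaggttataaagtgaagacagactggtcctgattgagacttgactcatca

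B2m, H2-K1 and H2-D1 each held all 4 motifs in their windows. Of all 32851 RefSeq windows of this length, 3.18% held the kappaB site, 17.02% the interferon-response core, 15.7% the CRE-like core and 29.3% CCAAT. All 4 occurred together in 14 windows (0.0426%), and 7 of these belonged to B2m or to histocompatibility genes, namely B2m, both starts of H2-K1, H2-D1, H2-Q4, H2-Q7 and H2-M3. In B2m, H2-K1 and H2-D1 the inverted CCAAT letters ATTGG began 25 bases after the start of TGACG. That arrangement was found in 15 of the 32851 windows (0.0457%), a spacing looked at after the sequences had been seen. It is the order of the X and Y boxes in the module through which Nlrc5 acts, as background. From the start of the kappaB match to the base before TGACG, 66 of 70 bases were identical between H2-K1 and H2-D1 (94.3%).

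The other windows held fewer of these letters. Tap1 had the CRE-like core alone. The Tap1 and Psmb9 windows share 175 of their 200 bases, since the genes lie head to head, so the CRE-like match of Psmb9 is the same site, beside a CCAAT match of its own. Tapbp had CCAAT alone and Psmb8 none of the 4. Among the H2-Mv genes every window held CCAAT, 4 of the 9 genes held the CRE-like core, 1 the interferon-response core (H2-M10.1, overlapping its CCAAT match) and none the kappaB site. A match is a description of letters and not of binding, and the missing matches refer to this window only.

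Recovered depth was 17884091 to 26415660 reads per library. Tex15 itself stood at 2.72, 2.29, 2.81 and 2.27 TPM (transcript abundance per length, with the same total in each library) in heterozygous replicates 1 to 4 and at 0.870, 1.23, 1.12 and 1.14 in knockout replicates 1 to 4, without overlap, with a log2 fold change of -1.22 relative to the median gene and an adjusted p of 0.794 in limma. Of 4 vomeronasal neuron markers chosen, Trpc2 was not listed by that symbol. The other 3, Omp, Gnai2 and Gnao1, were above 0 in every library. Omp, which marks mature olfactory and vomeronasal neurons, was at 66.6 TPM in heterozygous replicate 1 and at 571 to 943 TPM in the other 7 libraries. Gnao1 did not follow Omp there and lay inside the range of the other libraries, as given below. Heterozygous replicate 1 and knockout replicate 4 also stood apart together in MHC genes. Their class II gene H2-Eb1 was at 13.01 and 24.4 TPM against 88.5 to 281 TPM elsewhere, and their class Ib gene H2-T22 at 5.60 and 12.1 TPM against 20.0 to 59.1. The 10 most abundant genes held 22.8% to 44.9% of all TPM in a library, and median-ratio size factors ran from 0.666 to 1.39, so values are given both as deposited and after scaling where it matters.

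Class I genes were among the most abundant messages of the organ. B2m had a mean of 2513 TPM over the 8 libraries and ranked 44th of 20305 genes, H2-D1 had 977 TPM (rank 87) and H2-K1 679.9 TPM (rank 124). The loading machinery was lower, with 69.7 TPM for Tapbp, 33.5 for Psmb8, 20.7 for Tap2, 20.3 for Psmb9 and 19.2 for Tap1. Nlrc5 was lowest at 4.45 TPM (rank 12163), below the median tested gene. This order held between neighbours in 8 of 8 libraries, except that Tap2 was above Psmb9 in 5 of 8 and Psmb9 above Tap1 in 6 of 8, so Tap2, Psmb9 and Tap1 were not separated.

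**Figure D1:**
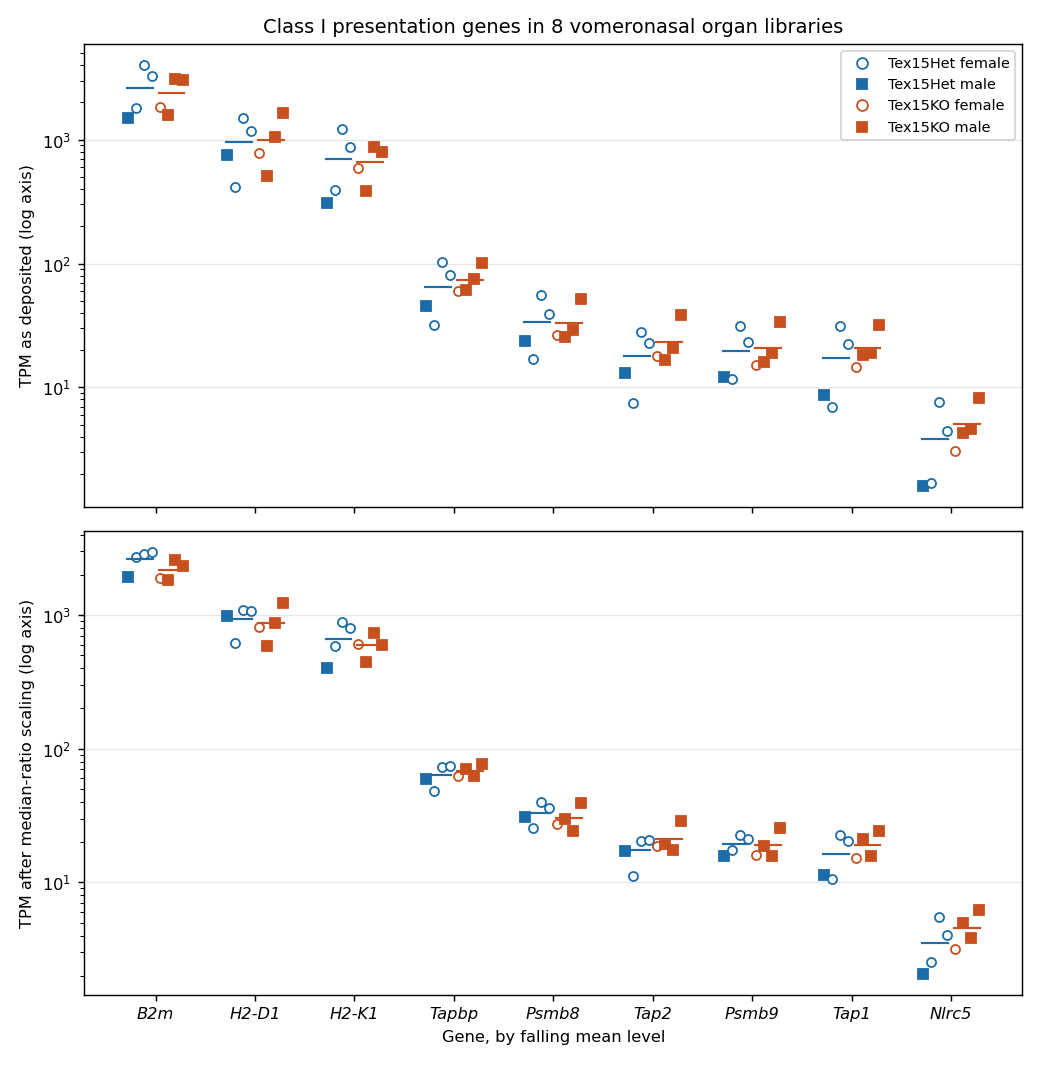
TPM of the 9 class I presentation genes (log axis) in each library, as deposited (top) and after median-ratio scaling (bottom); circles are females, squares males, blue Tex15Het, orange Tex15KO, and lines are group means. The groups overlap for every gene, and the libraries lie closer together after scaling.

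The comparison of genotypes asked whether the general class I pathway differs between Tex15Het and Tex15KO organs. None of the 9 genes was called in either direction (limma with sex as a term, Benjamini-Hochberg adjusted p of 0.9995 for each), where 0.586% of all tested genes were called, 0.212% higher and 0.374% lower in knockout libraries. At an unadjusted p under 0.05 the count was also 0 of 9, beside 3.1% of all genes. The genotypes overlapped for all 9, while 1.4% of all tested genes did not overlap. Fold changes are given for knockout against heterozygous libraries on the log2(TPM + 0.5) scale, relative to the median gene, whose own fitted value was 0.19 as deposited, whereas p-values test the coefficient before this shift. Of the 9 genes 6 lay above and 3 below the median gene, with a median of 0.13.

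B2m encodes the light chain shared by classical heavy chains and by H2-Mv. It was at 1483, 1815, 4003 and 3249 TPM in heterozygous replicates 1 to 4 and at 1826, 1593, 3087 and 3051 TPM in knockout replicates 1 to 4. Both genotypes had a pair of low and a pair of high libraries, and the knockout range lay inside the heterozygous one. The means were 2638 ± 1190.3 TPM (SD, n = 4) in heterozygous and 2389 ± 791 TPM (SD, n = 4) in knockout animals. The fitted log2 fold change was -0.15 with a standard error of 0.39 and a 95% interval of -0.97 to 0.66, from 15199 to 32205 reads per library. It was -0.58 in females alone, with a single knockout library, and 0.27 in males alone, with heterozygous replicate 1 as the single heterozygous library. These values and the interaction rest on those single libraries. The genotype by sex interaction had an unadjusted p of 0.0513 in limma, with 0 of the 9 genes called beside 0.133% of all genes.

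H2-K1 and H2-D1 encode the classical heavy chains that bind peptide. H2-K1 was at 309, 392, 1224 and 878 TPM in heterozygous replicates 1 to 4 and at 588, 384, 869 and 795 TPM in knockout replicates 1 to 4. The lowest and the highest library were both heterozygous. Its log2 fold change was 0.16 with a standard error of 0.43 and a 95% interval of -0.74 to 1.06. The value was -0.28 without heterozygous replicate 1, when the estimate rests on knockout replicate 1 against 3 heterozygous females, and 0.59 without knockout replicate 1. In the 6 later-numbered animals it was -0.53 without the sex term (limma, unadjusted p = 0.0438, adjusted p = 0.964), where both heterozygous mice were female and 3 of 4 knockouts male. Dropping the sex term alone gave -0.084.

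H2-D1 was at 755, 414, 1504 and 1184 TPM in the heterozygous replicates, in the same order, and at 775, 506, 1043 and 1633 TPM in the knockout ones. Knockout replicate 4 was highest and heterozygous replicate 2 lowest. The group means were 964 ± 478 TPM (SD, n = 4) and 989 ± 482 TPM (SD, n = 4), and the log2 fold change was -0.14 with a standard error of 0.45 and a 95% interval of -1.08 to 0.80. Differences of up to about 2-fold lie within these intervals, so smaller ones could not be resolved for the heavy chains.

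The transporter genes were low and spread widely. Tap1 was at 8.73, 7.00, 31.4 and 22.6 TPM in heterozygous and at 14.7, 18.1, 18.9 and 32.2 TPM in knockout replicates 1 to 4. Tap2 was at 13.1, 7.46, 28.3 and 22.9 TPM and at 17.9, 16.6, 20.8 and 38.2 TPM. For both genes heterozygous replicate 2 was lowest and knockout replicate 4 highest of the 8 libraries. The log2 fold change of Tap1 was 0.35 with a standard error of 0.48 and a 95% interval of -0.66 to 1.36, and that of Tap2 0.26 with a standard error of 0.46 and a 95% interval of -0.70 to 1.21. Tap1 also turned to -0.15 without heterozygous replicate 1 and moved to 0.84 without knockout replicate 1, whereas Tap2 stayed at 0.11 to 0.37 whichever library was left out. Those Tap1 fits rest on a single knockout and a single heterozygous library, in that order.

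Tapbp, the chaperone that ties the heavy chain to the transporter, was at 45.6, 32.1, 102 and 81.4 TPM in heterozygous and at 59.7, 60.7, 75.1 and 101 TPM in knockout replicates 1 to 4. The knockout libraries fell inside the heterozygous range. Its log2 fold change was 0.13 with a standard error of 0.41 and a 95% interval of -0.72 to 0.97, and after scaling its interval was -0.34 to 0.54, the narrowest of the 9 genes. Its value was -0.038 without heterozygous replicate 1 and 0.29 without knockout replicate 1.

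Psmb8 and Psmb9 encode catalytic subunits of the immunoproteasome. Psmb8 was at 23.5, 16.9, 55.4 and 39.5 TPM in heterozygous and at 26.3, 25.7, 29.0 and 51.5 TPM in knockout replicates 1 to 4. Psmb9 was at 12.1, 11.7, 31.4 and 23.3 TPM and at 15.3, 16.2, 18.8 and 33.5 TPM. In each gene 3 knockout libraries were close together and knockout replicate 4 stood above them. The log2 fold changes were -0.11 with a standard error of 0.43 and a 95% interval of -0.99 to 0.78 for Psmb8, and 0.011 with a standard error of 0.43 and a 95% interval of -0.88 to 0.90 for Psmb9. Psmb8 turned to 0.052 without knockout replicate 1, and Psmb9 was -0.34 without heterozygous replicate 1 and 0.36 without knockout replicate 1.

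Nlrc5, the transactivator of class I genes, was at 1.59, 1.68, 7.61 and 4.44 TPM in heterozygous and at 3.05, 4.31, 4.61 and 8.26 TPM in knockout replicates 1 to 4, from 205 to 748 reads per library. Heterozygous replicates 1 and 2 were lowest and knockout replicate 4 highest. Its log2 fold change was 0.41 with a standard error of 0.51 and a 95% interval of -0.66 to 1.47, the largest estimate and the widest interval of the 9 genes. The estimate was -0.25 without heterozygous replicate 1 and 1.06 without knockout replicate 1. These fits rest on a single knockout and a single heterozygous library, in that order. Nlrc5 lies on chromosome 8, as does Tex15, 60.8 Mb away.

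**Figure D2:**
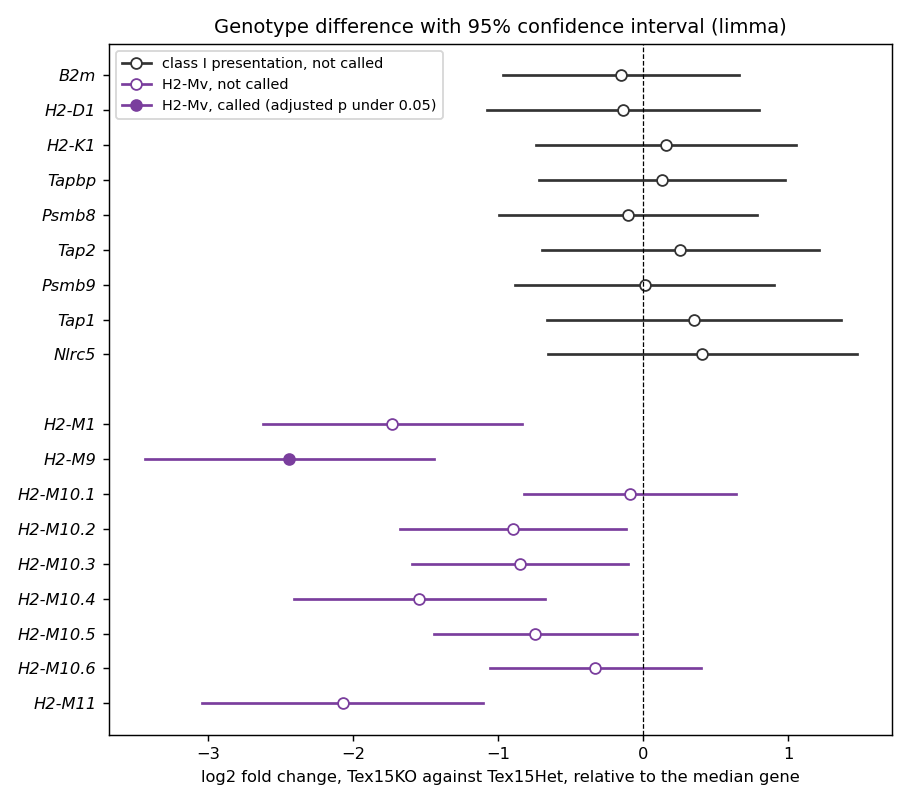
Log2 fold change of knockout against heterozygous libraries relative to the median gene (points) with 95% confidence intervals (lines) for the 9 class I presentation genes and the 9 H2-Mv genes. All 9 intervals of the class I genes cross 0, and all 9 H2-Mv points lie below 0, with H2-M9 the one called. Intervals are not adjusted for the number of genes and are drawn relative to the median gene, which the test is not.

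Scaling narrowed the class I intervals without adding a call. After median-ratio scaling the log2 fold changes relative to the median gene were -0.18 for B2m, 0.13 for H2-K1, -0.17 for H2-D1, 0.33 for Tap1, 0.23 for Tap2, 0.10 for Tapbp, -0.13 for Psmb8, -0.011 for Psmb9 and 0.43 for Nlrc5, and 0 of 9 were called beside 0.763% of all genes. Among all tested genes, 43 were called higher and 76 lower as deposited, and 28 higher and 127 lower after scaling. On the scaled values the 95% interval of B2m was -0.87 to 0.50.

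In the 5 libraries that share a title number, fitted without the sex term, all 9 genes lay below the median gene, from -0.57 for H2-D1 to -0.18 for Tap2. Of these, 0 of 9 were called, beside 1.83% of all genes, and 6 of 9 had an unadjusted p under 0.05 in limma, beside 6.48% of all genes. The median gene of this fit was itself at -0.28, which the p-values do not take off. After scaling these libraries the values were -0.54 to -0.16, with 0 of 9 called beside 0.475% and 3 of 9 at an unadjusted p under 0.05 (H2-D1, Psmb8 and Psmb9) beside 4.37% of all genes. Both heterozygous mice of this subset were female and 2 of 3 knockouts male, so sex and genotype can hardly be told apart in it, and it was chosen after seeing the data.

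No class I gene was called by sex. The sex coefficient called 0 of 9 genes, beside 0.0492% of all genes, and 0 of 9 reached an unadjusted p under 0.05 in limma, beside 2.27% of all genes. The largest was H2-K1, lower in males by a fitted log2 difference of -0.58 with a standard error of 0.43.

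Class I genes varied between animals to unlike degrees. As deposited, the ratio of the highest to the lowest of all 8 libraries was smallest for B2m and reached 5.20-fold for Nlrc5, with a median of 3.94-fold over the 9 genes and 2.71-fold over all tested genes. After scaling these medians were 2.11-fold and 1.85-fold. Scaled B2m, Tapbp, Psmb8 and Psmb9 were at 1.59-fold to 1.64-fold, near the median of 1.62-fold of tested genes averaging 5 TPM or more. The remaining class I genes were at 2.11-fold to 3.02-fold. The SD within a genotype had a scaled median of 0.36 for the 9 genes and 0.26 for all tested genes on the log2 scale.

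The same libraries were low or high for most of the pathway. On scaled values, heterozygous replicates 1 and 2 were each among the lowest pair of libraries for 6 of 9 genes, and heterozygous replicate 3 and knockout replicate 4 each among the highest pair for 7 of 9. The former had the lowest size factors (0.768 and 0.666) and the latter the highest (1.39 and 1.32). The part of library composition in this order was not tested. Heterozygous replicate 1 was not low in every gene, since scaled H2-D1 was at 984, 622, 1081 and 1072 TPM in heterozygous replicates 1 to 4 and at 807, 585, 874 and 1235 TPM in knockout replicates 1 to 4. Scaled Tap1 was at 11.4, 10.51, 22.5 and 20.5 TPM and at 15.3, 21.0, 15.9 and 24.3 TPM in the same order. Heterozygous replicates 1 and 2 formed a low pair for Tap1, which they did not for H2-D1.

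**Figure D3:**
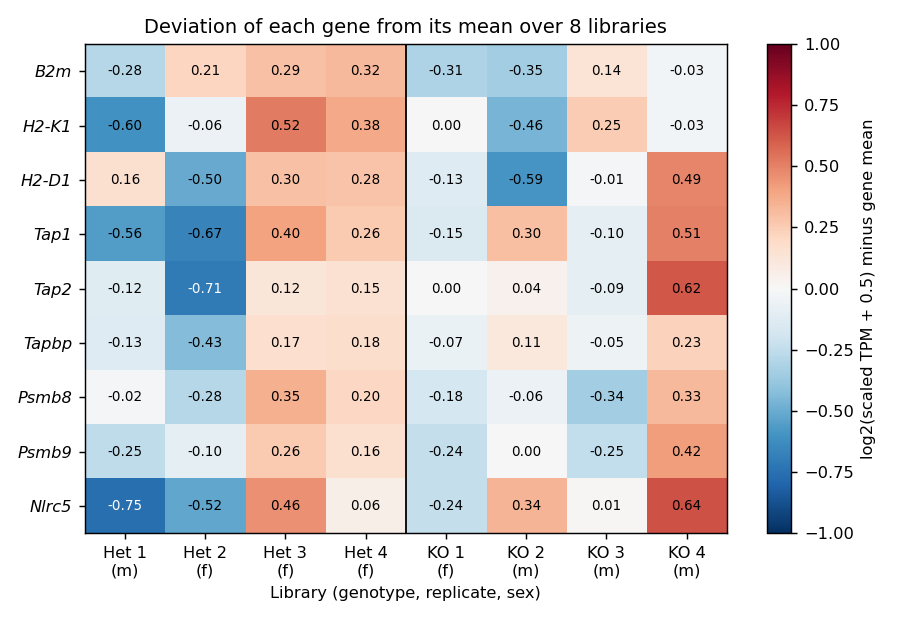
Deviation of scaled log2(TPM + 0.5) from the gene's mean over the 8 libraries, by gene (rows) and library (columns, sex in brackets). Heterozygous replicate 3 is above the mean for all 9 genes, and H2-D1 in heterozygous replicate 1 goes against H2-K1.

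Some of the genes followed each other more closely than others over the animals. Among Tap1, Tap2, Tapbp, Nlrc5, Psmb8 and Psmb9 the 15 pairwise correlations of scaled values over 8 libraries were 0.62 to 0.96 with a median of 0.79, highest for Tap1 with Nlrc5. B2m and H2-K1 followed each other with 0.82, but their 12 correlations with the 6 loading genes were -0.10 to 0.44 with a median of 0.28. H2-D1 stood between, at 0.33 to 0.72 with the loading genes, which overlaps the range among them, so the grouping has no sharp edge. These are descriptions over 8 libraries that share their scaling, with no pairs of other genes set beside them. On the deposited values all 36 pairs lay between 0.73 and 0.98.

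Leukocyte and class II markers were summed beside this spread. All 26 of 26 leukocyte markers were listed, none of them at 0 in any library, and their summed level was 875, 907, 2500.3 and 1773 TPM in heterozygous replicates 1 to 4 and 1348, 875, 1638 and 1112 TPM in knockout replicates 1 to 4. After scaling the sums were 1140.1, 1363, 1797 and 1605 TPM and 1402, 1012, 1373 and 841 TPM in the same order. Heterozygous replicate 3 was highest in the scaled sum, but knockout replicate 4, among the highest pair for 7 of 9 class I genes, was the lowest of the 8 libraries. A single plasma cell gene, Jchain, with a mean of 637 TPM, makes up a large part of this sum. The 10 class II genes, which mark antigen-presenting cells, summed to 895, 772, 2488 and 1739.7 TPM and to 1114, 992, 1506 and 2029 TPM in the same order, with heterozygous replicate 3 and knockout replicate 4 as the highest pair. After scaling the class II sums were 1166, 1159.7, 1788 and 1575 TPM and 1159, 1148, 1262 and 1535 TPM, and heterozygous replicates 3 and 4 were the highest pair, followed by knockout replicate 4. The part of blood cells in the class I levels was not tested. The 5 genes whose scaled values were most like the mean standardised level of the 9 genes over the 8 libraries were Cd74, the class II invariant chain (r = 0.958), Phf12 (0.947), Cux2 (0.943), Btbd9 (0.943) and Cd6 (0.940). Cd74, at 291 to 1145 TPM, was the abundant one, and Cux2 and Cd6 had means under 1 TPM.

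Ratios within a library do not depend on its scaling. The ratio of H2-K1 to H2-D1 was 0.409, 0.947, 0.814 and 0.742 in heterozygous replicates 1 to 4 and 0.759, 0.759, 0.834 and 0.487 in knockout replicates 1 to 4. Heterozygous replicate 1 and knockout replicate 4, 1 library of each genotype, had the lowest ratios. Expressed the other way, the H2-D1 level was 2.44 and 2.05 times that of H2-K1 in these libraries and 1.06 to 1.35 times in the other 6. Between genotypes the mean log2 ratio differed by 0.0001 (exact permutation test over 70 assignments, two-sided, p = 1, adjusted p = 1 over 4 ratios), and by -0.084 without these libraries. These are the same libraries that were low in H2-Eb1 and H2-T22. In the reference, 98.6% of 150-base windows of H2-D1 exons and 100% of those of H2-K1 occurred in no other annotated transcript. The H2 haplotype of each animal is not given in the sources used here, and its part in these ratios was not tested, nor was that of read assignment.

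**Figure D4:**
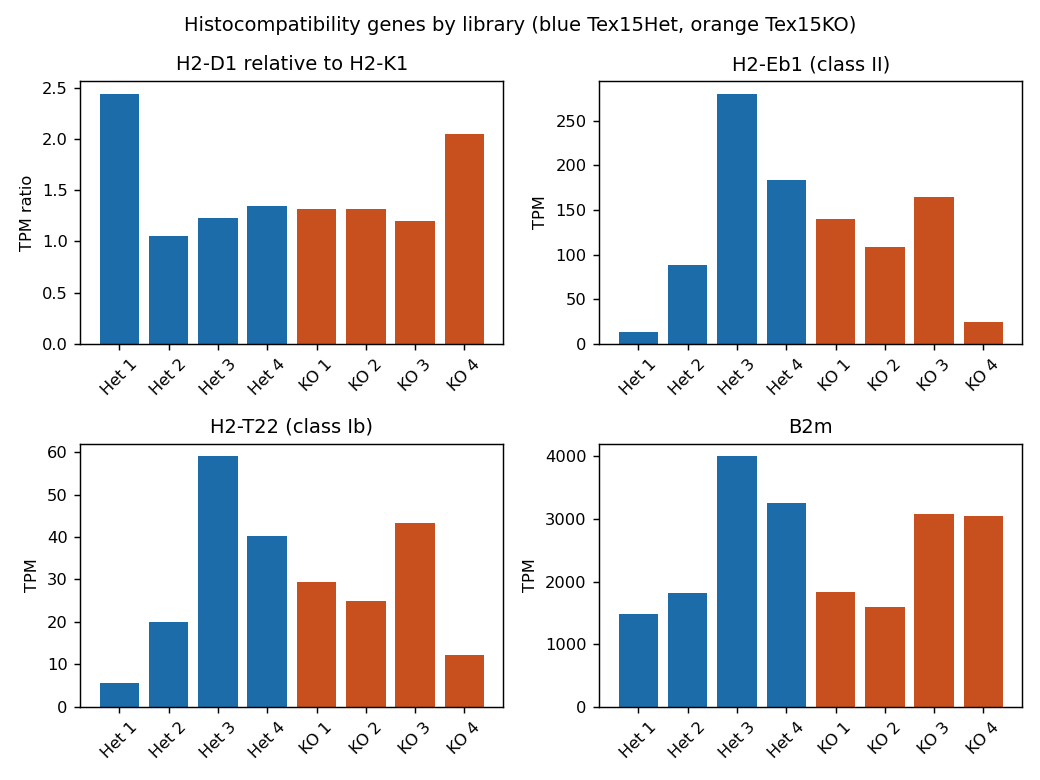
Ratio of H2-D1 to H2-K1, and TPM of H2-Eb1, H2-T22 and B2m, in each library (blue Tex15Het, orange Tex15KO, all axes from 0). Heterozygous replicate 1 and knockout replicate 4 have H2-D1 to H2-K1 ratios of 2.44 and 2.05 and the lowest H2-Eb1 and H2-T22, while their B2m values are not alike.

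Tap1 and Tap2 kept near equal levels in most animals, with a Tap1 to Tap2 ratio of 0.667, 0.938, 1.11 and 0.986 in heterozygous replicates 1 to 4 and 0.823, 1.09, 0.909 and 0.842 in knockout replicates 1 to 4. The lowest ratio was in heterozygous replicate 1. The mean log2 ratio differed between genotypes by 0.00254 (exact permutation test, two-sided, p = 1, adjusted p = 1). Psmb8 and Psmb9 were scarcer than Psmb5 and Psmb6, the constitutive subunits they replace. This did not hold for Psmb10, with a mean of 40.4 TPM against 38.4 TPM for its constitutive counterpart Psmb7. The ratio of Psmb8 to Psmb5 was 0.203, 0.161, 0.343 and 0.304 in heterozygous and 0.195, 0.284, 0.216 and 0.358 in knockout libraries, and that of Psmb9 to Psmb6 was 0.124, 0.118, 0.213 and 0.203 and 0.118, 0.184, 0.148 and 0.274. Heterozygous replicates 3 and 4 and knockout replicate 4 had the highest values of both. The mean log2 ratios differed by 0.084 and 0.12 between genotypes (exact permutation tests, two-sided, p = 0.771 and 0.714, adjusted p = 1 for both).

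B2m message was 1.26 to 2.25 times the sum of H2-K1 and H2-D1 in TPM. With the H2-Mv messages added to the heavy chains, the same ratio was 0.868, 1.69, 1.18 and 1.26 in heterozygous replicates 1 to 4 and 1.09, 1.25, 1.37 and 1.07 in knockout replicates 1 to 4. The class Ib heavy chains, among them H2-Q4 and H2-T23, are not in this sum.

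Other genes of the pathway are given by list, and a count of 0 in lists of this size is near the share over all tested genes, 0.586%. Among other processing and loading genes 0 of 8 were called in either direction, with a median of -0.016, and the most abundant were Pdia3 (-0.12) and Calr (-0.017), a disulfide isomerase and a lectin chaperone of the loading complex. The constitutive subunits gave 0 of 3, with -0.14 for Psmb5 and -0.038 for Psmb6. Interferon signalling and class I transcription genes gave 0 of 15 with a median of 0.016, including the kinase Jak1 (-0.13) and the interferon gamma receptor chain Ifngr1 (0.46). Interferon-stimulated genes gave 0 of 15 with a median of 0.10, including the tetherin gene Bst2 (0.15) and the GTPase gene Gbp2 (0.29). As deposited, 0 genes of these 4 lists reached an unadjusted p under 0.05 in limma, beside 3.1% of all genes. After scaling Ifngr1 did, with 0.43 (limma, unadjusted p = 0.0488, adjusted p = 0.917). The median over all tested genes was 0 by construction.

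Counts for presentation genes outside the classical pathway and for cell type markers are again to be read beside the 0.586% of all tested genes that were called. Class II genes gave 0 of 10 with a median of -0.073, including Cd74 (-0.073) and the alpha chain gene H2-Aa (-0.18). Class Ib genes other than H2-Mv gave 0 of 13 tested of 14 listed with a median of -0.078, including H2-Q4 (-0.028) and H2-T23 (0.59), the mouse Qa-1 gene. Leukocyte markers gave 0 of 25 tested with a median of 0.094, and the most abundant were the plasma cell gene Jchain (-0.048) and the neutrophil gene S100a9 (-0.51). Endothelial markers gave 0 of 4, with 0.22 for Cldn5 and 0.30 for Pecam1. Neuronal markers gave 0 of 3 tested, with 0.061 for Gnai2, -0.21 for Gnao1 and 1.28 for Omp. Heterozygous replicate 1, the single male heterozygous library, was at 66.6 TPM for Omp and weighs 0.5 in that group's part of the coefficient. The group means were 620.0 and 678 TPM. In limma Omp had an unadjusted p of 0.0118 for genotype and an adjusted p of 0.00288 for the genotype by sex interaction. Supporting cell markers gave 0 of 3, with -0.13 for Cbr2 and -0.51 for Cyp2a5.

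Set beside these general genes, the H2-Mv genes of basal neurons had lower fitted values in knockout libraries. All 9 lay below the median gene, with a median of -0.90 as deposited and -0.93 after scaling, and 1 of 9 was called, beside 0.374% of all tested genes called in that direction. The called gene was H2-M9, at 13.5, 3.72, 15.3 and 11.5 TPM in heterozygous and 2.22, 1.16, 1.63 and 2.21 TPM in knockout replicates 1 to 4. Its groups did not overlap, and its log2 fold change was -2.44 with a standard error of 0.48 (limma, adjusted p = 0.0275). That call was lost in 7 of 21 alternatives with a test, among them leaving out heterozygous replicate 1 (-1.70, adjusted p = 0.751), knockout replicate 1 (-3.18, adjusted p = 0.0546) and knockout replicate 2 (-2.39, adjusted p = 0.0593). The fits without heterozygous replicate 1 and without knockout replicate 1 rest on a single knockout and a single heterozygous library, in that order. In the later-numbered animals, fitted without the sex term, 4 of 9 H2-Mv genes were called lower, beside 0.743% of all genes in that fit. In the 5 libraries that share a title number it was 4 of 9, beside 1.41% of all genes called lower in that fit, and after scaling 2 of 9 beside 0.348%. Gnao1, which marks the basal neurons, was at 17.3, 11.5, 30.7 and 23.7 TPM in heterozygous and 16.8, 18.2, 19.8 and 24.2 TPM in knockout replicates 1 to 4, with overlapping groups and a log2 fold change of -0.21 (limma, adjusted p = 0.9995), -0.23 after scaling. Its part in the H2-Mv values was not tested.

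Groups did not overlap for 2 of 9 H2-Mv genes, both lower in knockout libraries, beside 0.926% of all tested genes in that direction. The other was H2-M11, at 12.9, 3.53, 12.8 and 12.2 TPM in heterozygous and 2.88, 1.99, 1.96 and 2.33 TPM in knockout replicates, with a log2 fold change of -2.07 (limma, adjusted p = 0.0908). H2-M1 had -1.73 (adjusted p = 0.192) and H2-M10.4 had -1.54 (adjusted p = 0.341). The most abundant of them, H2-M10.3, was at 203, 78.6, 190.1 and 145 TPM and at 91.2, 102, 100.4 and 153 TPM, and its groups overlapped, with a log2 fold change of -0.85. H2-M10.1 had the value nearest to the median gene, -0.090. The remaining H2-M10.2, H2-M10.5 and H2-M10.6 had -0.90, -0.74 and -0.33.

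Summed H2-Mv was also set against B2m, alone of the class I genes, as a ratio within each library. Summed H2-Mv reached 0.435, 0.147, 0.165 and 0.160 of the B2m level in heterozygous replicates 1 to 4 and 0.173, 0.241, 0.111 and 0.143 in knockout replicates 1 to 4. Heterozygous replicate 1 was high alone and the others overlapped. The mean log2 ratio differed by -0.34 (exact permutation test, two-sided, unadjusted p = 0.571, a ratio added after the values had been seen). The difference was 0.030 without heterozygous replicate 1 and -0.53 without knockout replicate 2. Summed H2-Mv was thus not shown to differ from B2m in its response to genotype. The sum weighs abundant genes such as H2-M10.3 most, and the test has no sex term. It therefore does not address single genes such as H2-M9.

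In the genome 7 of the 9 genes lie in the MHC on chromosome 17 (GRCm38, GENCODE M21): Tapbp at chr17:33915899-33929292, H2-K1 at chr17:33996017-34000347, Psmb9 at chr17:34181987-34187764, Tap1 at chr17:34187553-34197225, Psmb8 at chr17:34197721-34201454, Tap2 at chr17:34203527-34216321 and H2-D1 at chr17:35262730-35267499. B2m is at chr2:122147686-122153083 and Nlrc5 at chr8:94434356-94527272. Several overlap other genes, which bears on how reads could be assigned. The whole B2m span lies within Patl2 on the opposite strand. Tap1 and Psmb9 overlap by 212 bases on opposite strands, Tapbp overlaps Zbtb22 by 3422 bases on the same strand, and antisense gene models lie over parts of Psmb8, Tap2 and Tapbp. Windows of 150 exon bases found in no other transcript made up 89.9% of Tapbp, 95.4% of Psmb8 and 98.5% to 100% of the other 7 genes. The treatment of strand and of shared reads in counting is not given in the sources used here.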

How the data were processed

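The authors deposited 1 table of TPM values for 27532 genes, 1 column per library, each summing to 1000000 TPM, and 0 sample columns were left unused. Per the labels' protocols, polyadenylated RNA of extracts with an integrity number above 7 gave strand-specific libraries, read as pairs of 150 bases. Trim Galore 0.6.5, cutadapt 5.1, STAR 2.7.11b, deepTools 3.5.5 and the mm10 (GRCm38) build are named, without roles, per the submitters' processing notes. The counting program is not given in the sources used here.

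The 20305 genes averaging 0.5 TPM or more were analysed as log2(TPM + 0.5), which understates changes of low genes, with limma 3.58.1 in R 4.3.3 (lmFit, eBayes with trend), with genotype and sex as terms. P-values were adjusted by Benjamini-Hochberg over all tested genes, and an adjusted p under 0.05 was called. With this design heterozygous replicate 1 and knockout replicate 1 each weigh 0.5 in the genotype coefficient and every other library 0.167. Scaling used the median over genes of a library's ratio to the geometric mean of all libraries, and the median gene then changed by -0.0069. Ratios were tested by exact permutation over 70 assignments of all 8 libraries, whose smallest p is 0.0286. Subsets of libraries allow fewer assignments. Reads were recovered from TPM times the GENCODE M21 exon length, which 803 genes lacked, and 97.5% to 98.0% of values under 25 reads were whole within 0.02. At 2 kb of exons, 3 reads were worth 0.0916 to 0.163 TPM, a limit for counting error only. P-values measure the spread between these 8 animals.

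All 9 genes, the H2-Mv genes, Tex15, the called and the 2 most abundant genes of each list, and the 5 genes most like the mean of the 9 were named, and H2-Eb1, H2-T22 and H2-T10 were chosen after their values were seen. The members and lists were chosen with earlier results of these data known. Alternatives were other pseudocounts, filters, scaling, variance moderation, limma-voom on recovered reads, designs without sex or with library number, subsets of animals and leaving out each library. Leaving out heterozygous replicate 1 and knockout replicate 4 together, the 5 libraries sharing a title number, the H2-Mv to B2m ratio, and the alternatives for H2-Mv genes were added after seeing the data.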

Additional observations from a re-analysis of the deposited data

Results flagged for a closer look

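In 28 groups of 4 libraries, the gap of the highest or lowest library to its nearest neighbour was set against the whole range. Dixon's critical value for 4 libraries is passed by chance in about 1 of 20 groups. Psmb8 in the knockout group passed it with 0.872, since knockout replicate 4 was at 51.5 TPM and the others at 25.7 to 29.0 TPM. The ratio of summed H2-Mv to B2m in the heterozygous group passed it with 0.935, since heterozygous replicate 1 was at 0.435 and the others at 0.147 to 0.165. In that library Omp was at 66.6 TPM, while summed H2-Mv was at 644 TPM, inside the 266 to 662 TPM of the other libraries. The part of Omp in the ratio was not tested.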

How the results depend on the processing

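The count of called class I genes was 0 by genotype in all 21 alternatives with a test and 0 by sex in all 16. At most 1 class I gene had an unadjusted p under 0.05 by genotype in any of them, except in the 5 libraries sharing a title number, where 6 did, and 3 after scaling. The count of genes called by genotype over the whole table was 119, and it moved to 72 without a filter, 59 with a filter at 5 TPM, 184 in the later-numbered animals without the sex term, 197 without heterozygous replicate 1 and knockout replicate 4, 374 in the 5 libraries sharing a title number without the sex term, and 83 to 254 when single libraries were left out.

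Log2 fold changes of class I genes changed sign as follows, and the cause was not tested. Psmb9, at 0.011, turned to -0.0057 with a pseudocount of 0.1, -0.011 after scaling, -0.0077 by limma-voom on recovered reads and -0.0063 without the sex term, which also turned H2-K1 to -0.084. In the later-numbered animals fitted without the sex term, which changes both choices at once and leaves both heterozygous mice female and 3 of 4 knockouts male, the values of opposite sign were H2-K1 -0.53, Tap1 -0.21, Tap2 -0.012, Tapbp -0.14, Psmb9 -0.24, Nlrc5 -0.076. In females alone they were H2-K1 -0.28, Tap1 -0.15, Tapbp -0.039, Psmb9 -0.34, Nlrc5 -0.25, and in males alone B2m 0.27, Psmb8 0.049. Without heterozygous replicate 1 and knockout replicate 4 they were H2-K1 -0.28, Tap1 -0.15, Tapbp -0.039, Psmb9 -0.34, Nlrc5 -0.25. In the 5 libraries sharing a title number they were H2-K1 -0.55, Tap1 -0.34, Tap2 -0.18, Tapbp -0.21, Psmb9 -0.40, Nlrc5 -0.23, and after scaling H2-K1 -0.53, Tap1 -0.32, Tap2 -0.16, Tapbp -0.18, Psmb9 -0.38, Nlrc5 -0.23. With single libraries left out, the ranges were -0.58 to 0.27 for B2m, -0.28 to 0.59 for H2-K1, -0.29 to -0.0014 for H2-D1, -0.15 to 0.84 for Tap1, -0.038 to 0.29 for Tapbp, -0.27 to 0.052 for Psmb8, -0.34 to 0.36 for Psmb9 and -0.25 to 1.06 for Nlrc5. H2-D1, listed for its range, kept its sign in every alternative. The fits without heterozygous replicate 1, alone or together with knockout replicate 4, leave knockout replicate 1 as the single knockout library with weight, by their construction. They thus repeat the comparison in females alone. The fit without knockout replicate 1 likewise leaves heterozygous replicate 1 as the single heterozygous library with weight and repeats that in males alone.

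The 4 ratios (H2-K1 to H2-D1, Tap1 to Tap2, Psmb8 to Psmb5, Psmb9 to Psmb6) had no adjusted p under 0.4 in any alternative. This does not show stability, since in some alternatives too few assignments remain for the permutation test to reach the threshold for a call. These were the later-numbered animals, the design with library number, and the 5 libraries sharing a title number. The same holds without heterozygous replicate 1 and knockout replicate 4. In the later-numbered animals the log2 ratio differences were -0.16, -0.20, -0.33 and -0.27. Without heterozygous replicate 1 and knockout replicate 4 they were -0.084, -0.11, -0.16 and -0.22. In the 5 libraries sharing a title number they were 0.012, -0.16, -0.50 and -0.49, and the H2-Mv to B2m difference 0.034. A pseudocount of 0.5 gave -8.6e-06 and -0.0021 for the first and second. Leaving out single libraries gave -0.26 to 0.17, -0.15 to 0.10, -0.11 to 0.25 and -0.10 to 0.30. The H2-Mv to B2m difference ran from -0.53 to 0.030 over single libraries left out and was 0.084 without heterozygous replicate 1 and knockout replicate 4.

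H2-M9 stayed below the median gene in all alternatives, at -3.19 to -1.70, and 0 to 4 H2-Mv genes were called. Libraries with the same number do not share an animal, and deviations of same-numbered libraries correlated by -0.061, 0.027, 0.097 and -0.00012, so the numbers were not taken as a pairing. A replicate block called 128 genes and 0 class I genes. Each number holds 1 library of each genotype and of opposite sex, so the block leaves the fold changes as they were by construction. Every class I gene had at least 205 recovered reads in each library.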

Other observations

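The order of H2-T10 and H2-T22 also set heterozygous replicate 1 and knockout replicate 4 beside each other. H2-T10, a neighbour of H2-T22 in sequence and position, was at 19.5 and 43.0 TPM in these libraries, above their H2-T22 values of 5.60 and 12.1. In the other 6 libraries H2-T10 was at 8.88 to 25.8 TPM and H2-T22 at 20.0 to 59.1 TPM, so that H2-T22 was the higher in each. H2-T23 was at 18.7 and 47.6 TPM in heterozygous replicate 1 and knockout replicate 4 and at 36.3 to 117 TPM in the other 6, so that the former alone lay below that range. The other class II chains did not follow H2-Eb1, since H2-Aa was at 193 and 395 TPM in these libraries and at 178 to 473 TPM elsewhere, and H2-Ab1 at 177 and 367 TPM against 132 to 434 TPM. These libraries are 1 of each genotype and both from males, and 2 other males did not share the pattern. No test of this pattern was run, but both libraries were left out together in an alternative chosen after seeing the data.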
